A study of Mus musculus with 12 samples.

Results

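The genes described here are 38 type I interferon-stimulated genes, measured by RNA sequencing of whole mouse lung. The members were taken by gene symbol from a list of genes that type I interferon is known to induce. All 38 had a row among the 56980 genes of the expression table. All 38 also passed the filter on low counts, which left 17827 genes to be tested. The lowest value of any member in any library was 66 counts.

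The lungs came from male C57BL/6 mice aged 6 to 8 weeks. The 4 Control libraries came from mice given distilled water. The 4 Model libraries came from mice given bleomycin, a DNA-damaging drug that scars the lung, as a single dose of 5 mg/kg into the trachea, and distilled water. The 4 HBG libraries came from mice given the same bleomycin and Huashibaidu granules (HBG), a herbal preparation, by mouth. The series text gives the dose as 7 g/kg, while the sample text names several dose levels without saying which of them these libraries had. The labels also disagree on when the granules were given. The series text places the first dose a week before bleomycin and the last at the end of the experiment on day 28, whereas the sample text gives a start on day 7 and a course of 14 days. The labels do not say whether the 4 libraries of a group are 4 animals, so the p-values reflect only how far these libraries differ, and that spread may be technical. In bulk tissue, fewer cells of a type and less RNA per cell cannot be told apart.

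Type I interferons are secreted proteins that bind a receptor of the chains IFNAR1 and IFNAR2. The kinases JAK1 and TYK2 then phosphorylate STAT proteins such as STAT2, which works with IRF9 in the complex ISGF3. ISGF3 binds interferon-stimulated response elements near the start sites of the genes it induces. The induced proteins sense foreign nucleic acid, block the translation and copying of viral RNA, modify proteins with the ubiquitin-like ISG15, and feed back on the signal. In the lung these genes are best known from viral infection, and the list holds both sensors and effectors.

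The response element is shown first because it is the sequence that the members' regulation is known to share. A core of it, GAAA followed by any pair of bases and GAAA again, was searched on both strands, overlapping matches included, from 250 bases before to 50 bases after each start site in the RefSeq promoters of GRCm38.p6. Of the 38 members, 27 had a promoter in that table, and 13 of the 27 (48.1%) held a match, against 1079 of 27025 genes (3.99%) with promoters of the same length. The members without an entry were Mx1, Usp18, Oas2, Parp14, Ifi27l2a, Dhx58, Ifi204, Zbp1, Rtp4, Parp9 and Mx2. Windows around the matches are printed 5′ to 3′ in the direction of the gene, with matches in capitals. They lie at chr4:156200865-156200906 (minus strand) for Isg15, chr5:120907526-120907555 (minus) for Oas1a, chr5:120777715-120777744 (minus) for Oas3, and chr8:71537577-71537612 (minus) for Bst2. The other printed windows lie at chr19:34640775-34640823 (plus) for Ifit1, chr19:34583363-34583426 (plus) for Ifit3, chr19:34607759-34607822 (plus) for Ifit3b, and chr1:173942508-173942537 (minus) for Ifi203. Rsad2, Stat2 and Trim30a also held a match before the start site but are not printed. In Eif2ak2 and Ifih1, not printed either, the match lay after the start site.
Isg15: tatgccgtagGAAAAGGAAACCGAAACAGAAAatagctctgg
Oas1a: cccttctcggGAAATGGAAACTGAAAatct
Oas3: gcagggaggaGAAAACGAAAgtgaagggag
Bst2: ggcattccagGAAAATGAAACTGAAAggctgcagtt
Ifit1: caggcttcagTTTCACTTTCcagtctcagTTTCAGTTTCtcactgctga
Ifit3: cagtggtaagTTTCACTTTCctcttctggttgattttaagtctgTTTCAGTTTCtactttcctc
Ifit3b: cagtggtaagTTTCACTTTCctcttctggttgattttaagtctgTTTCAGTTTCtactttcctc
Ifi203: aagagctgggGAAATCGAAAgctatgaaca

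Isg15 carried 3 overlapping matches, and Oas1a and Bst2 carried 2 overlapping matches each. Ifit1 carried 2 separate matches on the opposite strand, and the windows of Ifit3 and Ifit3b were the same in every base. A match describes the letters only and is not evidence of binding. The fitted log2 fold change of HBG against Model had a median of 0.23 over the 13 members with a match and of 0.25 over the 14 with a promoter and no match.

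Library totals ranged from 17979908 to 27150874 estimated counts, and a count of 0 would allow up to 3 counts, or 0.117 to 0.166 CPM (counts scaled to the library size). The lung epithelial markers were abundant in every library, with summed levels of 32467 to 86036 CPM. Some libraries stood apart in markers of their cells. Summed CPM of the 6 B cell markers was 173 in Control 4, 266 in Model 2 and 380 in HBG 3, and 17.7 to 76.6 in the other 9 libraries. HBG 3 and Model 2 also had the highest sums of T cell markers (83.2 and 81.1 CPM, 37.5 CPM or less elsewhere), of NK cell markers (106 and 115 CPM, 73.6 CPM or less elsewhere) and of neutrophil markers (246 and 454 CPM, 122 CPM or less elsewhere). HBG 1 had the lowest sum of endothelial markers, at 918 CPM against 1364 to 3711 CPM elsewhere. Its sum of lung epithelial markers was lowest too, a sum made mostly of Scgb1a1 and Sftpc, whereas Epcam, another of them, was highest in HBG 1 at 106 CPM. Control 2 held 6048 CPM of AP-1 and immediate early genes, which respond quickly to handling and stress, against 750 to 1997 CPM elsewhere.

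As a single figure for a library, a score was taken as the mean log2 CPM of the 38 members minus its mean over the 12 libraries. The Control scores were -0.03, -0.37, -0.07 and -0.11 in libraries 1 to 4. The Model scores were -0.01, -0.04, -0.09 and -0.09. The HBG scores were 0.54, 0.15, 0.29 and -0.17. Model and Control overlapped, 3 HBG libraries lay above every Control and Model library, and HBG 4 lay below every Model library. The means were -0.14 ± 0.15, -0.06 ± 0.04 and 0.20 ± 0.29 (SD, n = 4 each) on the log2 scale. No test was made of the score, because the members were chosen with earlier results of these data known.

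**Figure D1:**
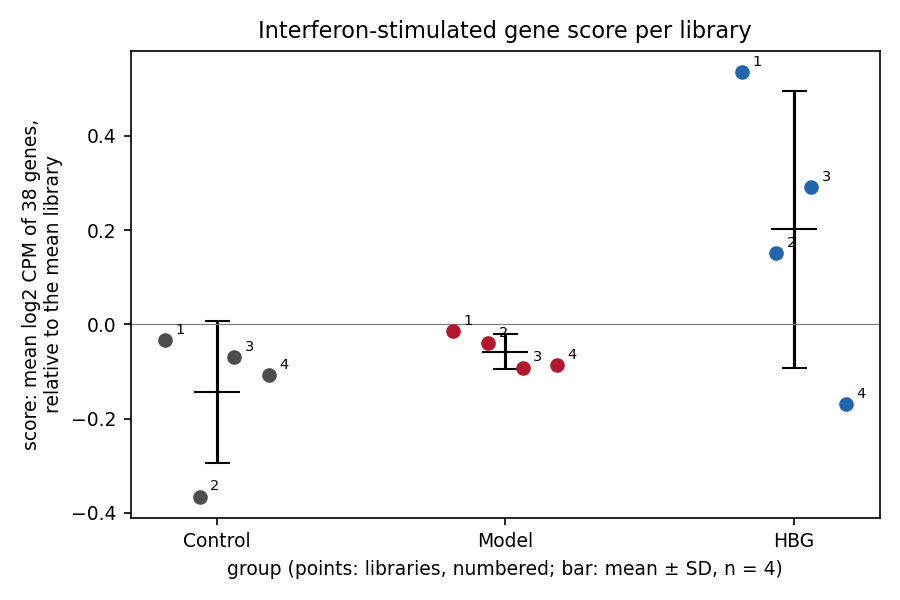
Score of each library (vertical axis: mean of log2 CPM over the 38 genes, with the mean library at 0) by group (horizontal axis), with points for libraries and bars for mean ± SD. Model libraries lie within -0.09 to -0.01, while the HBG libraries spread from -0.17 to 0.54.

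None of the 38 members passed the threshold of an adjusted p of 0.05 in bleomycin lung against Control, in edgeR's quasi-likelihood test with Benjamini-Hochberg adjustment over all genes. Of all tested genes 0.348% passed. The smallest edgeR adjusted p of a member was 0.2, and 1 member had an unadjusted p under 0.05 (11.7% of all tested genes did). That member was lower in Model, and none was higher (6.36% of all genes). DESeq2 called 1 member and limma-voom with sample quality weights called 1, in both cases Ifi27l2a, with a DESeq2 adjusted p of 0.0332 and a limma adjusted p of 0.0234. Those tools called 2.49% and 6.05% of all genes. The fitted change was above 0 in 24 members (51.5% of all genes) and below 0 in 14, with a median log2 fold change of 0.09, a ratio of 1.06, against 0.0089 over all genes. The fitted ratio was above 1.2 in 12 members (17% of all genes). Without Control 2 that median was 0.0054, with 20 members above 0, and without Model 2 it was 0.06.

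No member passed in HBG against Model either, and no gene of the table did (0%). The unadjusted p was under 0.05 in 5 members in edgeR (2.43% of all genes), all of them higher in HBG (0.735% of all genes), and the number called was 0 in DESeq2 and 0 in limma-voom as well. All 38 members had a fitted change above 0, against 50.1% of all genes. Several marker lists had the same direction. Fitted higher were 6 of 6 B cell, 6 of 6 T cell and 6 of 6 NK cell markers (median log2 fold changes 0.51, 0.41 and 0.45). So were 6 of 6 cardiac muscle markers (median 0.56) and all 5 tested markers of plasmacytoid dendritic cells (median 0.56). Of the fibroblast markers 0 of 6 were fitted higher (median -0.50), and none of these markers was called. The part of these cells in the members' levels was not tested. The median log2 fold change of the 38 members was 0.28, a ratio of 1.21, with a range from 0.05 for Oas2 to 0.70 for Irf7, against 0.00061 over all genes. The fitted ratio was above 1.2 in 22 members (11.7% of all genes). Without HBG 1 the median was 0.17 with 34 members above 0, and without HBG 3 it was 0.28 with 32 above 0. In limma-voom, which weights libraries by quality, it was 0.14 with 27 above 0.

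In HBG against Control no member passed in edgeR, where 0.151% of all genes did, and the smallest edgeR adjusted p was 0.154 for Irf7. The edgeR unadjusted p was under 0.05 in 16 members (8.25% of all genes), all of them higher in HBG (3.59% of all genes). That edgeR count was 7 without Control 2, 9 without HBG 1 and 20 without HBG 4. In limma-voom's own test it was 5. The shares of all genes in those settings are not given here. DESeq2 called 1 member, Irf7, with a DESeq2 adjusted p of 0.00326, and limma-voom called 0, where they called 1.15% and 0.567% of all genes. The fitted change was above 0 in 36 of 38 members (51% of all genes), the exceptions being Bst2 and Ifi27l2a. The median log2 fold change was 0.35, a ratio of 1.27, and the fitted ratio was above 1.2 in 22 members (15.6% of all genes). The median was 0.22 without HBG 1, 0.47 without HBG 4 and 0.13 in limma-voom. Without Control 2 it was 0.28, with 32 members above 0. The Control, Model and HBG libraries are each shared by 2 of these comparisons, so the directions of the comparisons are not independent of each other.

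**Figure D2:**
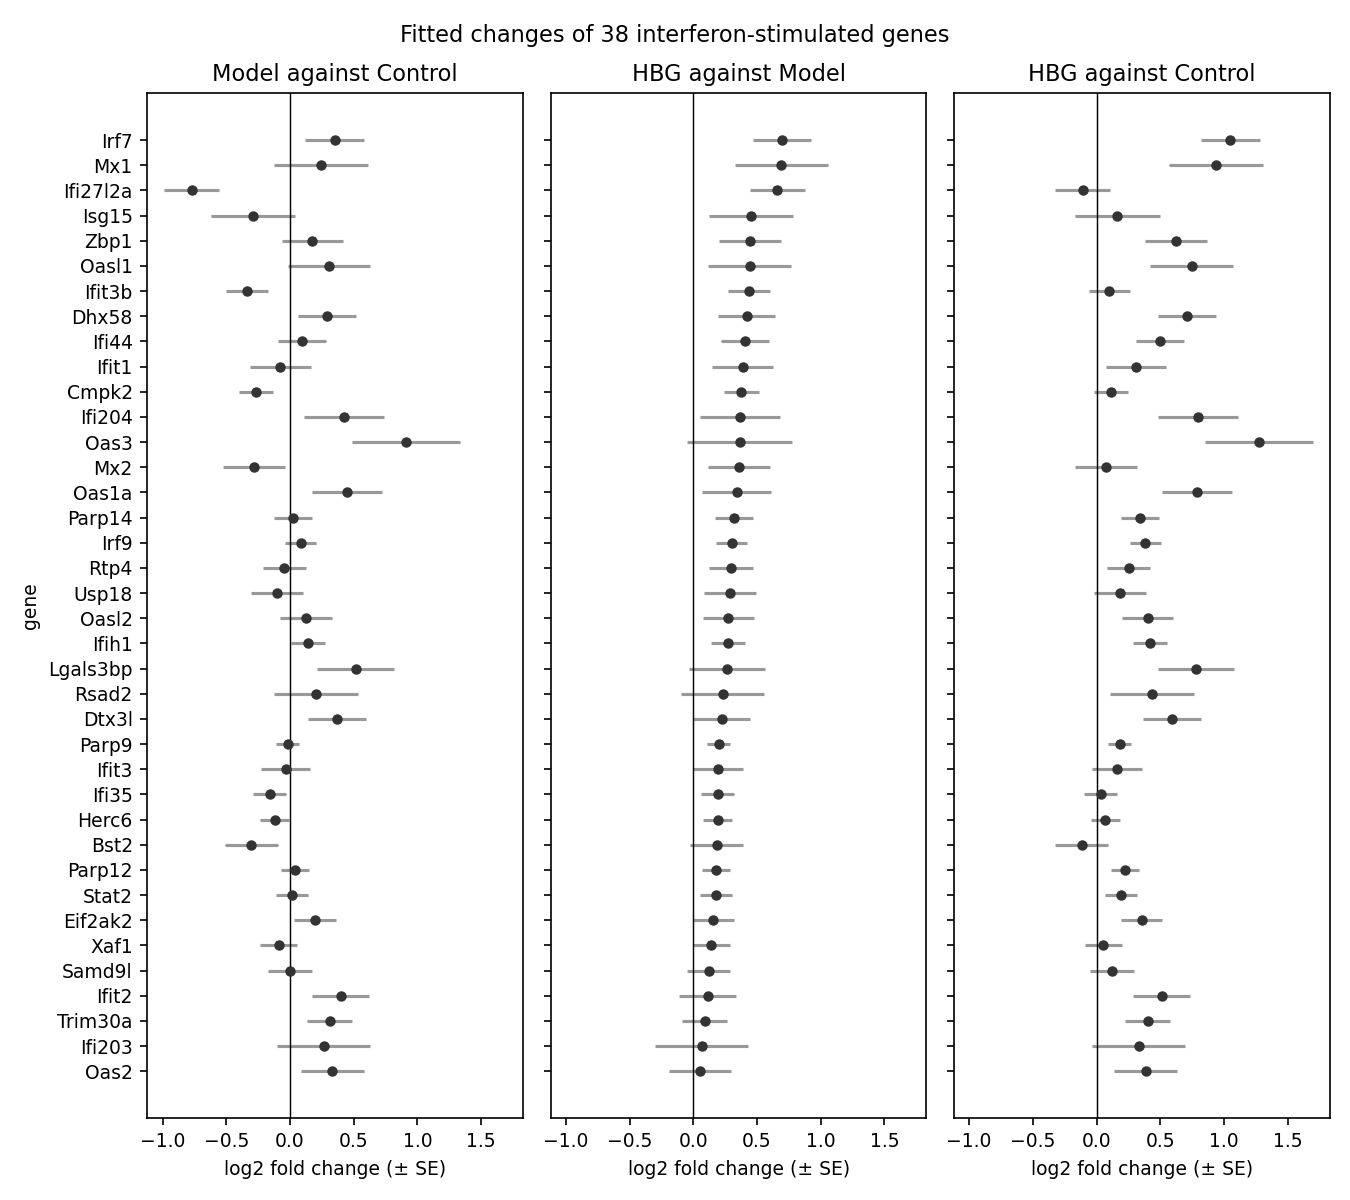
Fitted log2 fold changes (points, horizontal axis) ± SE (bars) of the 38 members (vertical axis, ordered by HBG against Model) in the 3 comparisons. All points lie above 0 in HBG against Model, 24 do in Model against Control and 36 do in HBG against Control, and no member passed the threshold in edgeR.

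Few members had groups whose libraries were fully apart. In Model against Control this was 1 of 38 (Lgals3bp, higher), where 4.2% of all genes were apart and higher. In HBG against Model it was 3 (Cmpk2, Irf7 and Ifit3b, all higher), against 0.454% of all genes. In HBG against Control it was 2 (Irf7 and Ifih1, both higher), against 2.41%. These counts turned on single libraries. Without HBG 4, 10 members were apart and higher in HBG against Model (0.937% of all genes in that setting) and 18 in HBG against Control (5.17%). Without HBG 3 the former count was 5 (1.9%), and without Control 3 the latter was 4 (3.06%). In Model against Control, 7 members were apart and higher without Model 4 (9.84%), and 2 to 4 members were apart in either direction when any other library of that comparison was left out (10.7% to 13.4% of all genes).

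Irf7, the transcription factor that amplifies interferon production, was singled out after its values were seen. Its levels were 35.6, 29.9, 34.2 and 28.8 CPM in Control 1 to 4 and 33.5, 46.0, 37.0 and 47.5 CPM in Model 1 to 4. In HBG 1 to 4 they were 108, 55.7, 54.1 and 48.2 CPM. Every HBG library was above every other library, HBG 4 only narrowly above Model 4, and Control and Model overlapped. The log2 fold change was 0.35 ± 0.23 (SE) in Model against Control (edgeR adjusted p = 0.583), 0.70 ± 0.23 in HBG against Model (edgeR adjusted p = 1) and 1.05 ± 0.23 in HBG against Control (edgeR adjusted p = 0.154). Without HBG 1 the change of HBG against Model was 0.36.

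Irf9 and Stat2 supply the DNA-binding and the activating parts of ISGF3. Irf9 ranged from 48.7 to 62.3 CPM in Control and from 55.2 to 66.3 CPM in Model, and was 69.0, 78.3, 89.3 and 62.2 CPM in HBG 1 to 4. HBG 1, 2 and 3 were above all Control and Model libraries, and HBG 4 lay within both ranges. Its log2 fold change in HBG against Model was 0.30 ± 0.12 (edgeR adjusted p = 1). Stat2 differed less, with 49.1 to 73.1 CPM in Control, 62.3 to 71.8 CPM in Model and 65.1 to 79.8 CPM in HBG, and the ranges overlapped. Its change in HBG against Model was 0.18 ± 0.12 (edgeR adjusted p = 1).

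The 6 sensors of RNA and DNA were all fitted higher in Model than in Control (median log2 fold change 0.23) and all higher in HBG than in Model (median 0.32). Ifih1 encodes MDA5, which detects long double-stranded RNA. It measured 41.4, 37.9, 40.9 and 41.8 CPM in Control, 47.1, 50.8, 42.3 and 38.9 CPM in Model, with 54.2, 47.9, 69.7 and 44.6 CPM in HBG. All HBG libraries were above all Control libraries, while HBG and Model overlapped, and the change of HBG against Control was 0.42 ± 0.13 on the log2 scale (edgeR adjusted p = 0.437). Ifi203 belongs to the DNA-binding HIN-200 family. It was 64.2, 41.6, 55.8 and 87.7 CPM in Control, 66.7, 113, 53.6 and 66.6 CPM in Model, with 58.4, 64.2, 146 and 44.1 CPM in HBG. The highest library of each group was Control 4, Model 2 and HBG 3, which had the most B cell marker counts, whose part in the result was not tested. The log2 fold change of Ifi203 in HBG against Model was 0.06 ± 0.37 (edgeR adjusted p = 1), and with Control 4, Model 2 and HBG 3 left out it was -0.16. Dhx58, Zbp1, Eif2ak2 and Ifi204 had changes of 0.42, 0.45, 0.16 and 0.37 in that comparison.

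The list holds 5 genes of the oligoadenylate synthetase family, whose active proteins make the signal that switches on RNase L. These 5 had the highest group median in HBG against Control, at 0.75 on the log2 scale. Oas3 had the largest fitted change of any member there, 1.27 ± 0.42 in edgeR (edgeR adjusted p = 0.462), and was chosen for description after its values were seen. It measured 7.38, 3.70, 4.90 and 6.17 CPM in Control, 10.4, 16.8, 7.74 and 6.65 CPM in Model, with 21.9, 9.57, 16.6 and 5.32 CPM in HBG. HBG 4 was within the Control range and the remaining HBG libraries were above it. In limma-voom the change of Oas3 in HBG against Control was 0.64, and Irf7 was larger at 0.78.

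Oas2 was 20.2 to 26.3 CPM in Control, 24.2 to 32.3 CPM in Model, and 50.9, 28.1, 20.4 and 22.4 CPM in HBG 1 to 4. Only HBG 1 exceeded the Model libraries, and the change of HBG against Model went from 0.05 ± 0.25 (edgeR adjusted p = 1) to -0.32 without it. Oasl2, a relative in the same family, was 71.5 to 81.5 CPM in Control, 70 to 101 CPM in Model, and 149, 89.9, 94.3 and 67.2 CPM in HBG. Here too HBG 1 alone was above every Model library, with a fitted change of 0.28 ± 0.20, which was 0.02 without HBG 1. Oas1a shared 47.6% of its 75-base stretches with Oas1g in the GENCODE M21 transcripts and had values that were not whole in all 12 libraries, so its counts may be divided with that gene and are uncertain. Besides Ifit3 and Ifit3b, described below, the same held for the values of Ifi204, Trim30a, Dtx3l and Parp9. These shared 20.7%, 5.44%, 0.535% and 0% of their stretches with other genes. Herc6 shared 22.4% and had such values in 10 libraries. The counts of these genes are uncertain too.

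The IFIT proteins bind viral RNA and block its translation. In Model against Control 3 of the 4 genes were fitted lower and Ifit2 higher, and in HBG against Model all 4 were higher, with a median of 0.29. Ifit1 was 26.9 to 43.8 CPM in Control and 27.2 to 44.7 CPM in Model, and 70.8, 44.9, 36.1 and 34.5 CPM in HBG. Its log2 fold change in HBG against Model was 0.39 ± 0.24 (edgeR adjusted p = 1), 0.11 without HBG 1. Ifit3 was 101 to 128 CPM in Control and 82.1 to 134 CPM in Model, and 174, 133, 97.1 and 107 CPM in HBG, so that HBG 1 was the one HBG library above the Model range. Its change in HBG against Model was 0.19 ± 0.20 (edgeR adjusted p = 1), and in limma-voom it was -0.02.

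Ifit3b, named because its groups did not overlap, was 27.3, 16.3, 26.7 and 24.2 CPM in the Model libraries. In HBG it was 38.4, 33.3, 27.8 and 28.4 CPM. All HBG libraries were above all Model libraries, while the Control values of 26.0 to 32.7 CPM overlapped both. Ifit3 and Ifit3b shared 41.1% and 35.7% of their stretches with each other and had values that were not whole in every library, so neither count is certain alone. The sum of both had a log2 fold change of 0.24 ± 0.19 in HBG against Model (edgeR adjusted p = 1).

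Among the 8 membrane, GTPase and nucleotide effectors, Cmpk2, a mitochondrial nucleotide kinase, was also named because its groups did not overlap. It was 31.5, 24.0, 33.6 and 35.6 CPM in Control, 23.8, 22.7, 28.1 and 29.2 CPM in Model, with 34.3, 37.1, 33.9 and 29.7 CPM in HBG. Every HBG library was above every Model library, and the Control libraries overlapped both groups. The change of HBG against Model was 0.38 ± 0.13 on the log2 scale (edgeR adjusted p = 1) and kept to 0.32 to 0.44 with any one library left out.

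Bst2 encodes tetherin, which holds budding virus at the cell surface. It was 137, 102, 139 and 80.5 CPM in Control, 115, 68.0, 104 and 84.9 CPM in Model, with 99.6, 125, 81.3 and 116 CPM in HBG, with all 3 groups overlapping. The change was -0.30 ± 0.21 in Model against Control (edgeR adjusted p = 0.606) and 0.18 ± 0.21 in HBG against Model (edgeR adjusted p = 1), the latter ranging from 0.06 without Model 2 to 0.30 without Model 1. Samd9l, a restriction factor for poxviruses, was 138 CPM in Control 4, 114 CPM in Model 2 and 151 CPM in HBG 3, the highest library of each group, and 87.2 to 110 CPM in the others, with a change of 0.12 ± 0.17 in HBG against Model, which was -0.05 without HBG 3. Mx1 and Mx2 are dynamin-like GTPases. Mx1 reached 21.3 CPM in HBG 1 and 3.30 to 10.3 CPM in the other 11 libraries. C57BL/6 mice are known to carry a defective Mx1, so these counts say nothing about protein.

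Isg15 is the ubiquitin-like modifier itself, and was outside the naming rule. It was 26.8, 18.7, 26.8 and 15.2 CPM in Control, 22.7, 13.2, 22.7 and 12.9 CPM in Model, with 42.0, 23.3, 17.3 and 15.2 CPM in HBG. HBG 1 was the highest of all libraries and HBG 4 was among the lowest, with a fitted change of 0.45 ± 0.33 in HBG against Model (edgeR adjusted p = 1). Usp18, the protease that removes ISG15 and dampens the receptor, had the same highest library, at 58.0 CPM against 25.4 to 40.7 CPM elsewhere.

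Dtx3l, a ubiquitin ligase that works with PARP9, was 26.8 to 36.4 CPM in Control, 33.5 to 53.1 CPM in Model and 47.2, 41.4, 73.5 and 31.9 CPM in HBG. Trim30a, a TRIM-family regulator of innate signalling, was 32.8 to 48.8 CPM in Control, 45.1 to 61.0 CPM in Model, and 53.3, 53.1, 74.4 and 41.6 CPM in HBG. Both were highest in HBG 3 and, within Model, in Model 2, and both turned below 0 in HBG against Model without HBG 3 (-0.05 and -0.08). The 3 listed PARP genes, which encode ADP-ribosyltransferases or relatives of them, overlapped between all groups. Parp12 was 55.0 to 65.1 CPM in Control, 55.5 to 66.4 CPM in Model and 74.7, 71.4, 76.3 and 54.3 CPM in HBG, so that 3 HBG libraries lay above both groups and HBG 4 below both. Parp14 was 91.1 to 114 CPM in Control, 96.5 to 115 CPM in Model and 115, 128, 180 and 109 CPM in HBG, where only HBG 2 and HBG 3 stood clear of the Model range. The changes of Parp12 and Parp14 in HBG against Model were 0.18 ± 0.11 and 0.32 ± 0.15 (edgeR adjusted p = 1 for each), and that of Parp14 was 0.13 without HBG 3. In limma-voom that of Parp12 was 0.02.

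Ifi27l2a, a small mitochondrial protein, was the one member with an unadjusted p under 0.05 in Model against Control. It was 108, 117, 96.9 and 59.1 CPM in Control, 70.2, 49.7, 49.0 and 54.6 CPM in Model, with 108, 89.8, 63.6 and 92.3 CPM in HBG. Control 4 lay in the Model range and the other Control libraries were above it, while HBG 3 lay in the Model range and the other HBG libraries were above it. The log2 fold change was -0.77 ± 0.21 in Model against Control (edgeR adjusted p = 0.2) and 0.66 ± 0.21 in HBG against Model (edgeR adjusted p = 1), and HBG differed from Control by -0.11 ± 0.21. Without Control 4 the edgeR adjusted p of the first was 0.0782.

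Lgals3bp, a secreted galectin-binding glycoprotein, was 154, 183, 160 and 124 CPM in Control and 229, 197, 194 and 267 CPM in Model. In HBG it was 498, 169, 193 and 208 CPM. All Model libraries were above all Control libraries, and HBG 1 was far above every other library while HBG 2 and HBG 3 were below all Model libraries. The change in Model against Control was 0.51 ± 0.30 (edgeR adjusted p = 0.53), and that of HBG against Model was 0.27 ± 0.30 (edgeR adjusted p = 1), or -0.22 without HBG 1.

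**Figure D3:**
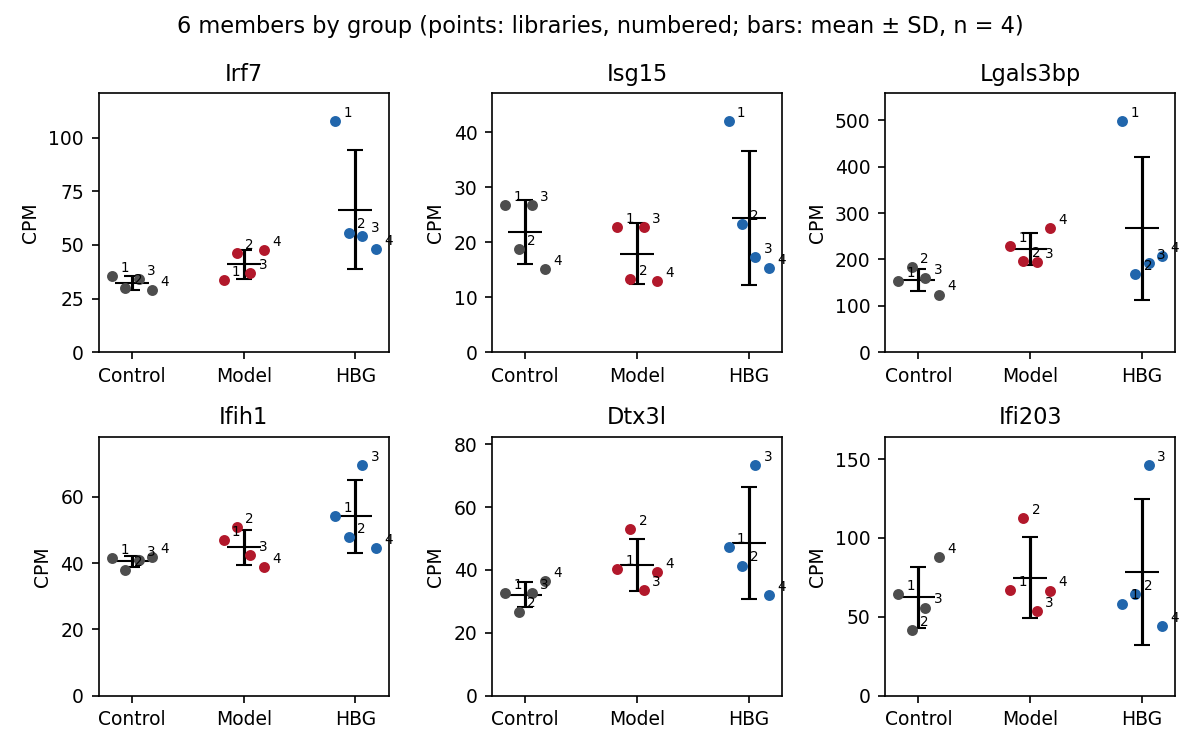
CPM (vertical axis) of Irf7, Isg15, Lgals3bp, Ifih1, Dtx3l and Ifi203 by group (horizontal axis), with numbered points for the 12 libraries and bars for mean ± SD (n = 4). Irf7 and Lgals3bp have their highest point in HBG 1, at 108 and 498 CPM, and Ifi203 has its highest in HBG 3, at 146 CPM.

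Most members were highest in HBG libraries, but not in the same ones. The highest of the 12 libraries was an HBG library for 35 members (38.5% of all genes), a Control library for 3 (28.9%) and a Model library for 0 (32.5%). HBG 1 was highest for 19 members (11.7% of all genes), HBG 3 for 14 (19.3%), HBG 2 for Cmpk2 and Xaf1, and HBG 4 for none. The members highest in HBG 1 were Irf7, Dhx58, Zbp1, Oas1a, Oas2, Oas3, Oasl1, Oasl2, Ifit1, Ifit3, Ifit3b, Mx1, Mx2, Rsad2, Ifi44, Rtp4, Isg15, Usp18 and Lgals3bp. They included every listed member of the oligoadenylate synthetase family and both Mx genes. Those highest in HBG 3 were Irf9, Stat2, Ifih1, Eif2ak2, Ifi203, Ifi204, Ifit2, Samd9l, Herc6, Dtx3l, Trim30a, Parp9, Parp12 and Parp14, and so held every listed PARP gene. Some of these places were nearly level. In HBG 3 and HBG 1, Stat2 was 79.8 and 79.1 CPM, Parp12 was 76.3 and 74.7 CPM, and Rsad2 was 17.8 and 19.2 CPM. HBG 1 exceeded HBG 3 by more than 1.5-fold in 13 members (23.1% of all genes) and the reverse held in 5 (18%).

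**Figure D4:**
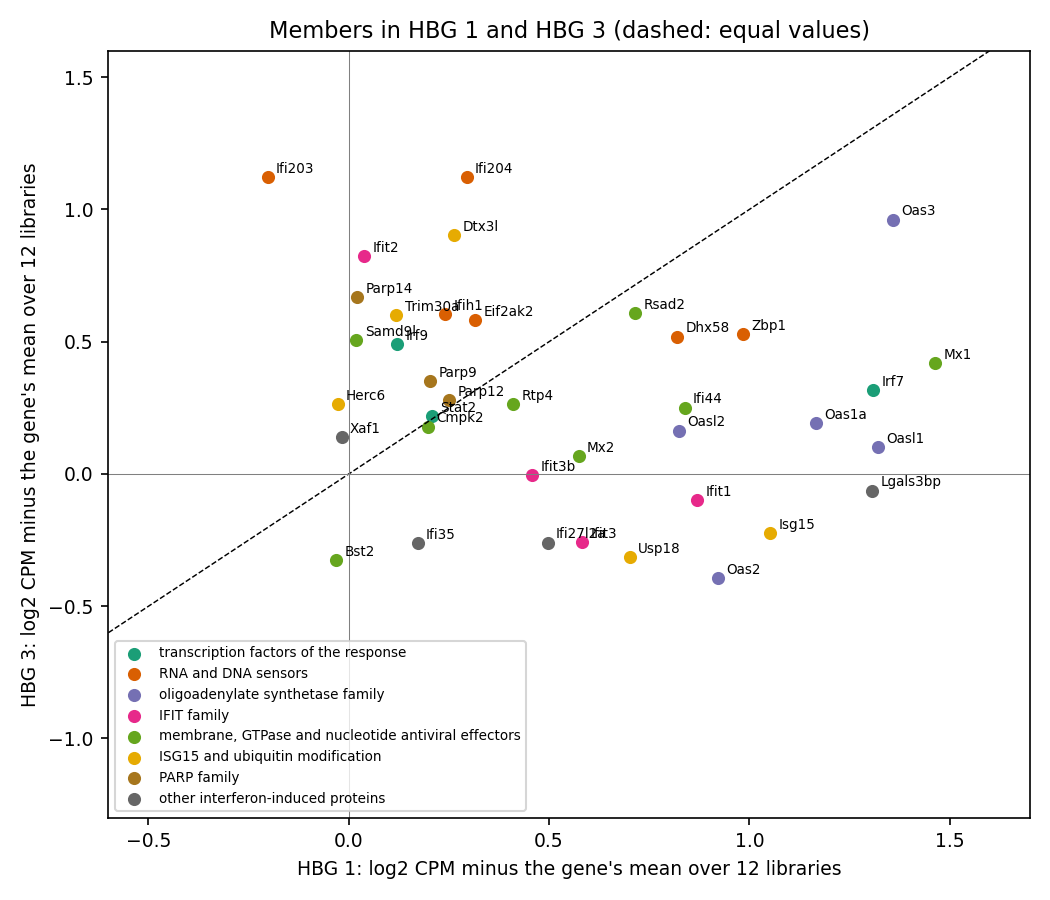
Level of each member in HBG 1 (horizontal axis) and HBG 3 (vertical axis), as log2 CPM minus the gene's mean over 12 libraries, with points for members and a dashed line of equal values. Lgals3bp lies farthest toward HBG 1, with a difference of 1.37, and Ifi203 farthest toward HBG 3, with a difference of -1.32.

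The members split in the other groups along the same libraries. Of the 14 members highest in HBG 3, 11 had Model 2 as the highest Model library, 6 had Control 4 as the highest Control library, and 6 had both. Among all 3445 genes highest in HBG 3 the shares were 70.9%, 54% and 43.1%. Of the 19 members highest in HBG 1, 2 had Model 2 highest, 4 had Control 4 highest and 1 had both, and the shares over 2088 genes were 12.7%, 20% and 5.08%. The members' counts were thus close to those of all genes with the same highest library. HBG 3, Model 2 and Control 4 are the libraries with 380, 266 and 173 CPM of B cell markers, and HBG 1, with 76.6 CPM, is not among them. HBG 3 and Model 2 were also the highest in T cell, NK cell, neutrophil and endothelial markers. Summed erythrocyte markers were highest in the same libraries, at 4455 CPM in HBG 3, 5664 CPM in Model 2 and 4404 CPM in Control 4. Control 1 was close at 4386 CPM, and the rest held 268 to 1730 CPM. The part of these cells in the members' levels was not tested. Leaving out all 3 libraries, a setting chosen after seeing the data, kept 36 of 38 members above 0 in HBG against Model, with a median of 0.26.

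**Figure D5:**
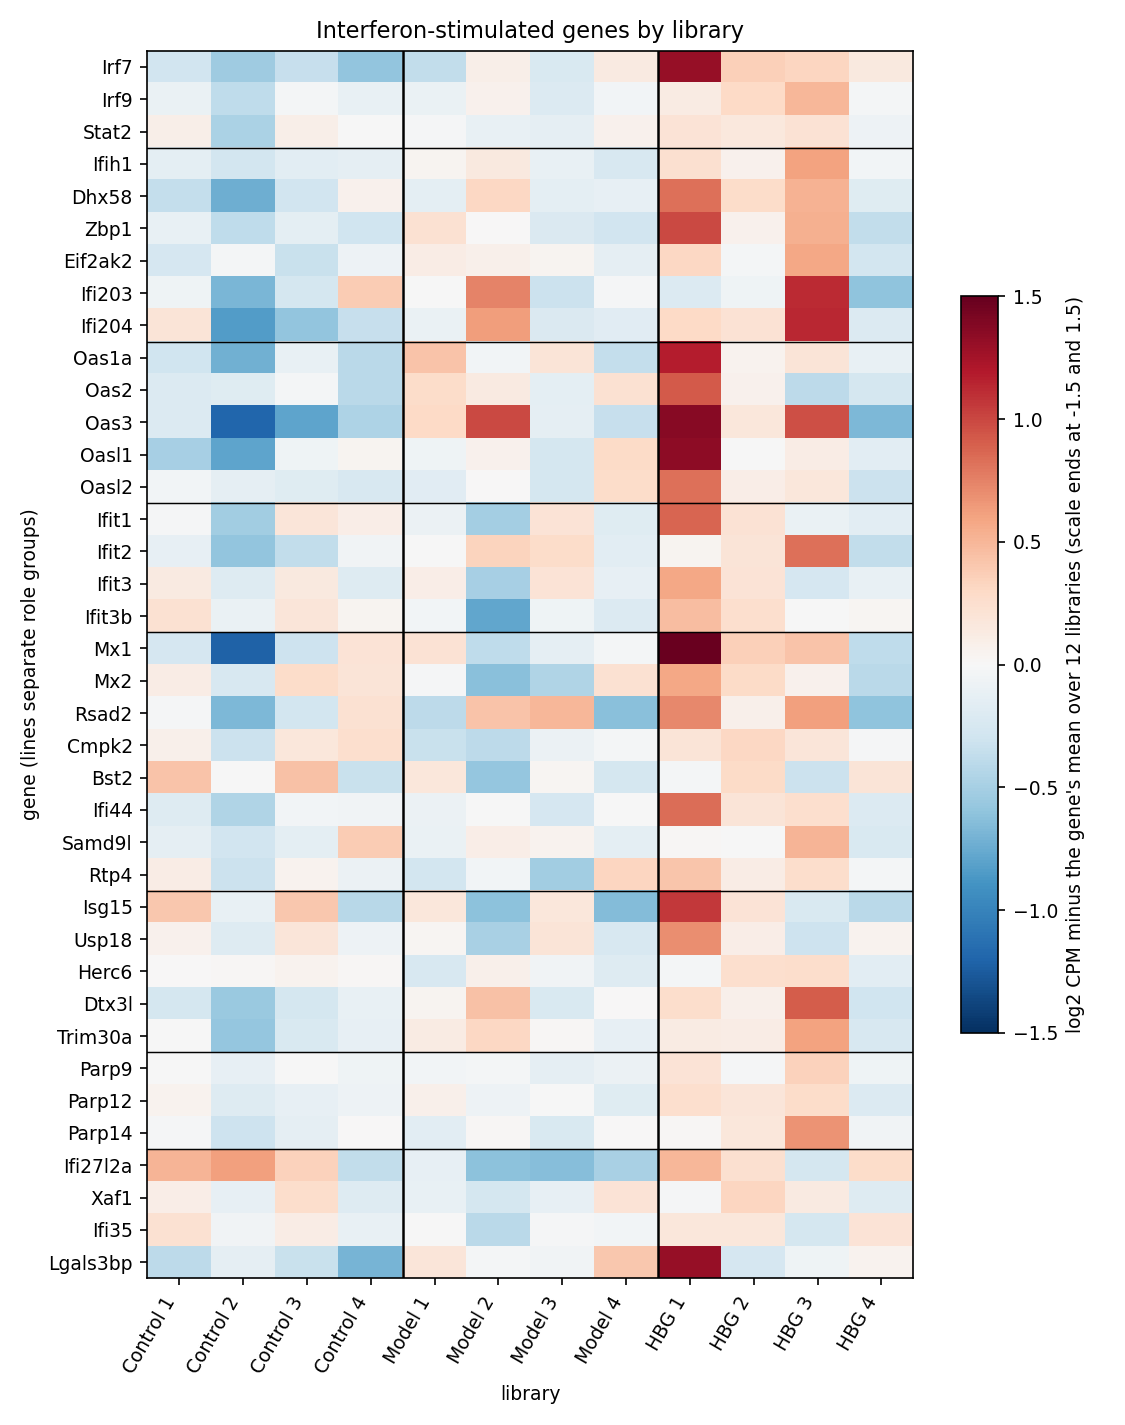
Log2 CPM of each of the 38 members (rows, by role) relative to its mean over 12 libraries, in each library (columns, by group), with colour from low to high. HBG 1 and HBG 3 hold the highest values for 19 and 14 members, and Control 2 the lowest for 19.

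At the low end, Control 2 was the lowest of the 12 libraries for 19 members (10.2% of all genes) and Model 2 for 8 (10.8%). The spread followed the groups as well. The coefficient of variation was largest in HBG for 31 of the 38 members (49.2% of all genes), in Control for 4 (14.5%) and in Model for 3 (36.3%). Its median over the members was 14.8% in Control, 16.5% in Model and 28.0% in HBG, and over all genes it was 13%, 19% and 20.7%.

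Levels of different genes were compared per length of gene, in RPKM. In Control the highest members were Ifi27l2a at 206, Bst2 at 144, Lgals3bp at 66.7, Ifit3 at 65.7 and Ifi35 at 42.6 RPKM. The lowest were Oasl1 at 2.23, Mx1 at 2.16 and Oas3 at 1.17 RPKM. Of the 37 pairs of neighbours in that order, 34 had overlapping ranges over the Control libraries, so the order is fixed only coarsely.

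The ligands themselves were almost absent. Of 20 genes for type I and type III interferons, 15 had 0 counts in all 12 libraries, no gene exceeded 3 counts in a library, and none passed the filter, so a difference in ligand RNA was not detectable at this depth. The 7 receptor and JAK-STAT genes were tested and 0 were called in each comparison, with 6, 4 and 6 fitted higher in the 3 comparisons in the order used above.

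The 17 tested inducers of interferon, such as the nucleic acid receptors and their adaptors, had 0 calls, with 15, 8 and 15 fitted higher in the 3 comparisons. A list of 9 genes drawn up as negative regulators had 0 calls, with 7, 5 and 6 higher. It also holds Isg20, an antiviral effector, which had a log2 fold change of -0.29 in Model against Control (edgeR unadjusted p = 0.0237). A further 36 interferon-stimulated genes outside the 38 had 0 calls, with 26, 28 and 32 higher and median log2 fold changes of 0.10, 0.21 and 0.39. In those pathway lists, the unadjusted p was under 0.05 for 3 of the 17, 3 of the 9 and 3 of the 36 in Model against Control (11.7% of all genes). It was under 0.05 for 1 gene of the 36 in HBG against Model (2.43%). In HBG against Control this held for 1 of the 7 receptor and JAK-STAT genes, 4 of the 17, 2 of the 9 and 8 of the 36 (8.25%). Ifitm3, which blocks viral entry, was 173 to 323 CPM in Control, 186 to 270 CPM in Model and 212 to 286 CPM in HBG, all overlapping. Samhd1, which degrades the building blocks of DNA, was 154 to 215 CPM in Control, 209 to 296 CPM in Model and 188 to 325 CPM in HBG, with a change of 0.46 ± 0.18 in Model against Control (edgeR adjusted p = 0.34).

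Plasmacytoid dendritic cells are known as the strongest producers of type I interferon. Their 6 markers summed to 42.3 CPM in HBG 1 and 50.2 CPM in HBG 3, and to 18.2 to 36.4 CPM in the other libraries, with 5 of the 6 tested and 0 called in any comparison. The markers differed between those libraries. Siglech, a defining marker, was 5.58 CPM in HBG 3 but 0.42 CPM in HBG 1, within its range of 0.16 to 2.63 CPM elsewhere, and most of the sum in HBG 1 came from Smim5 (22.5 CPM) and Ly6d (15.4 CPM). The part of these cells in the result was not tested.

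Among the genes outside the list whose levels were most like the score over the 12 libraries were Mzb1, Ighg2b, Zap70 and Trafd1. Pearson's r with the score was 0.916 for Mzb1, a chaperone of antibody-secreting cells, with a Spearman's rho of 0.720, and r was 0.693 without HBG 1 and HBG 3. It was 0.882 for Ighg2b, an antibody heavy chain, 0.876 for Zap70, a T cell kinase, and 0.871 for Trafd1. Ighg2b was 134 CPM in HBG 1 and 1.25 to 30.6 CPM in the other libraries. These genes were picked for their likeness out of 17789 tested, the points share libraries and depth, and no p is given.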

How the data were processed

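Polyadenylated RNA of whole mouse lung was sequenced as paired reads of 150 bases from a stranded kit, per the labels' protocols, in 12 libraries (4 Control, 4 Model, 4 HBG). Groups and replicate numbers come from the sample titles. The authors deposited estimated counts per gene in a single table. Its header names no unit, which was read from the values, since 10% to 15.1% of a library's values were not whole. The submitters' processing notes list the aligners HISAT2 and STAR 2.7.9a, the counters HTSeq and featureCounts 2.0.1, the trimmers and quality tools cutadapt, fastp, Trimmomatic 0.39 and FastQC 0.11.9, also DESeq2 1.34.0 and the builds mm10 and GRCm39, without saying what each was used for. The tool behind the counts was not given in the sources used here. The deposited gene length was used for RPKM and the group means were not used.

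Counts were rounded, filtered with filterByExpr and fitted with TMM factors and the group as the only term in edgeR 4.0.16 (R 4.3.3, limma 3.58.1, data.table, version 1.17.8). The quasi-likelihood F test was two-sided, with Benjamini-Hochberg adjustment over 17827 genes and a threshold of 0.05. CPM use the TMM factors, and log2 CPM a prior count of 2. Non-overlap means that every library of one group lay above every library of the other. Alternatives were DESeq2 1.42.0, limma-voom with sample weights by quality, upper-quartile and RLE factors, no filter, a mean of at least 1 CPM, a prior count of 0.5, the replicate number as a block, only the libraries compared, and each library left out. Figures were drawn with matplotlib 3.10.9 and pandas 2.3.3 in Python 3.11.15.

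The members and lists were chosen with earlier results of these data known. Named with full values are the 2 members of highest mean CPM in each role group and any member past the threshold in edgeR (none was). Irf7, Cmpk2, Ifit3b, Oas3 and Isg15 were added after their values were seen. Libraries of a group had pairwise correlations of log2 CPM of 0.925 to 0.984, and none agreed within sampling noise. In simulated counts, edgeR recovered 44 of 100 genes changed 2-fold and 79 of 100 changed 4-fold in Model against Control (17613 genes), 41 and 80 in HBG against Model (17602 genes) and 43 and 80 in HBG against Control (17602 genes). The SE come from the edgeR fit and include the spread between libraries, and the SD are that spread. The floors cover counting error only. A gene that the naming rule took from outside the members is not reported here.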

Additional observations from a re-analysis of the deposited data

Results flagged for a closer look

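In 8 of 114 combinations of a member and a group, 1 library lay further from its 3 partners than Dixon's 95% critical value allows. For independent and normally distributed values about 1 in 20 such groups would be flagged. The combinations share the same 12 libraries and are not independent, so the count cannot be judged against that share. The share over all genes was not computed, so the values below are description only. HBG 1 was above its partners in 4 of the 8 combinations. Irf7 was 108 CPM in HBG 1 against 48.2 to 55.7 CPM in the other HBG libraries, and Oas1a was 42.3 CPM against 17.4 to 21.5 CPM. Oasl1 was 14.6 CPM in HBG 1 against 5.21 to 6.24 CPM, and Lgals3bp was 498 CPM against 169 to 208 CPM. In Model 2, Dhx58 was 12.8 CPM against 9.28 to 9.44 CPM in the other Model libraries, and Ifi204 was 15.4 CPM against 8.60 to 9.28 CPM. Ifi35, which encodes an interferon-induced leucine zipper protein, was below its partners in 2 libraries. It was 42.2 CPM in Model 2 against 54.4 to 55.8 CPM, and 46.6 CPM in HBG 3 against 63.0 to 64.6 CPM.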

How the results depend on the processing

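No member was called in edgeR under any alternative, single libraries left out included. DESeq2 called 1 member in Model against Control and 1 in HBG against Control, and limma-voom called 1 in Model against Control. With RLE factors, 4 members did not overlap in HBG against Control (6.36% of all genes). Leaving out 1 library at a time gave 2 to 7, 3 to 10 and 2 to 18 such members in the comparisons of Model with Control, HBG with Model and HBG with Control, the highest without Model 4, HBG 4 and HBG 4, where 18%, 2.04% and 11.2% of all genes did not overlap. Over all such settings the shares were 10.7% to 18%, 1.96% to 4.61% and 7.85% to 11.4%. With a median over members in place of the mean, the scores of Model 1 and Model 4 were -0.091 and -0.043.

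Some named changes turned sign, among them Oas3 in HBG against Model (0.36) and Ifi203 in HBG against Control (0.33), and the cause was not tested. In Model against Control, limma-voom gave Irf9 -0.018, Stat2 -0.058, Oasl2 -0.025, Ifit1 0.059, Ifit3 0.076 and Parp14 -0.062. In HBG against Model it gave Ifi203 -0.12, Oas2 -0.012, Ifit3 -0.023, Samd9l -0.071, Trim30a -0.069 and Oas3 -0.020, and in HBG against Control Ifi203 -0.093 and Samd9l -1.28e-05. In Model against Control, upper-quartile factors gave Stat2 -0.019, Samd9l -0.036 and Parp14 -0.0094, and a mean of at least 1 CPM gave Samd9l -0.013. Without Control 4, Model 2 and HBG 3 together, chosen after seeing the data, Ifit1 was 0.071 and Ifit3 0.019 in Model against Control, and Ifi203 was -0.16 in HBG against Model.

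With single libraries left out, the ranges that crossed 0 in Model against Control were -0.11 to 0.063 for Stat2, -0.00039 to 0.47 for Ifi203, -0.22 to 0.033 for Ifit1, -0.13 to 0.088 for Ifit3, -0.083 to 0.16 for Samd9l, -0.0014 to 0.084 for Parp12 and -0.043 to 0.071 for Parp14. In HBG against Model they were -0.43 to 0.33 for Ifi203, -0.32 to 0.20 for Oas2, -0.046 to 0.22 for Samd9l, -0.050 to 0.38 for Dtx3l, -0.085 to 0.20 for Trim30a and -0.22 to 0.43 for Lgals3bp. In HBG against Control they were -0.17 to 0.53 for Ifi203, -0.024 to 0.27 for Ifit3, -0.044 to 0.27 for Samd9l, -0.29 to 0.019 for Ifi27l2a and -0.0034 to 0.17 for Cmpk2.

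Whether the replicate numbers pair the libraries cannot be settled from correlations with 4 libraries per group. Same-numbered libraries had correlations of their deviations of -0.20 to 0.16, -0.20 to 0.48 and -0.36 to -0.10 in the 3 comparisons. The best match had the same number for 1, 2 and 0 of 4 libraries in these comparisons. With the replicate number as a block, 0 members were called in each, and 25 genes against 62, 0 against 0 and 17 against 27 were called in all. In HBG against Model the block gave Ifi203 -0.011 and Oas2 -0.015. The number of all genes called in Model against Control was 444 in DESeq2 and 1079 in limma-voom, and in HBG against Control 205 and 101.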
